A study of Mus musculus with 2 samples.

Results

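The laminin and integrin genes of brown adipose tissue are described here by cell class, in mice kept at thermoneutrality and in mice sampled 4 days after a cold exposure. The members are all genes of the deposited table whose symbols begin with Lama, Lamb, Lamc, Itga or Itgb and a digit, together with Itgav, Itgax, Itgam, Itgal, Itgae and Itgad, and without the Itgb1bp genes. The rule found 39 of 31053 genes: 11 laminin chains, 18 integrin alpha subunits, 9 integrin beta subunits and Itgb3bp. Itgb3bp, which encodes a protein named for binding an integrin and known from the centromere, meets the rule by its symbol and is not a subunit. Single-nucleus RNA sequencing was done on C57BL/6 mice, an inbred laboratory strain, with no genetic change. The TN library came from mice housed at thermoneutrality and the 1cyc library from mice that went through a transient acute cold exposure, with tissue taken 4 days later. Each library pools the nuclei of 5 mice. There is 1 library per condition, the mouse of a nucleus is not known, and what belongs to the condition and what to the library cannot be told apart. The labels give neither age nor sex.

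Laminins are large secreted proteins built from an alpha, a beta and a gamma chain, and they form the polymer of basement membranes, the sheets that surround each adipocyte, muscle fibre and blood vessel. Integrins are cell surface receptors made of an alpha and a beta subunit that hold cells to laminins, collagens and other matrix proteins and link them to the actin cytoskeleton. Some integrins of leukocytes bind proteins of other cells in place of matrix.

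The TN library held 2551 barcodes and 2745808 UMIs (barcodes of single RNA molecules, so that copies made by PCR are not counted again), the 1cyc library 4321 barcodes and 2469900 UMIs. Barcodes under 20% mitochondrially encoded UMIs were put in 1 of 5 classes when at least 3 UMIs of exactly 1 marker sum were present: Pparg, Acsl1 and Ppara for adipocytes, Pdgfra and Dcn for fibroblasts, Ptprb and Flt1 for endothelial cells, Mrc1 and F13a1 for macrophages, Ttn and Neb for muscle. The mitochondrial limit removed 84 TN and 2275 1cyc barcodes (52.6%). The adipocyte class held 1826 TN and 1554 1cyc barcodes, the fibroblast class 44 and 20, the endothelial class 52 and 10, the macrophage class 9 and 9, and the muscle class 38 and 10. No class was given to 398 TN and 403 1cyc barcodes, and 100 and 40 reached several marker sums. Levels are CPM, counts per 1000000 UMIs of the class sum. The sums ran from 10072 UMIs in 1cyc macrophages to 1712428 in TN adipocytes, so that 1 UMI equals 99.3 CPM in the former and 0.584 CPM in the latter. Ranges in parentheses are 95% intervals. They cover the error of counting alone, and no test between the conditions was possible. Markers that the class rule did not use followed the class names, except the adipocyte list in TN. Of 12 further endothelial markers 12 had UMIs in the endothelial class (7344 CPM, and 11549 CPM in the 1cyc library) against 336 and 218 CPM in the adipocyte class. The fibroblast, macrophage and muscle lists were also highest in their own classes, at 6965, 6950 and 36277 CPM in TN and 6561, 6156 and 35728 CPM in 1cyc. Of the 12 macrophage markers, Cd68 and Fcgr1 were at 0 in both macrophage classes. The 12 further adipocyte markers summed to 5676 CPM in TN adipocytes and 7242 CPM in 1cyc adipocytes. In endothelial barcodes they summed to 9144 CPM in TN and 3553 CPM in 1cyc. In the TN endothelial sum 9 of the 12 had UMIs, and Adipoq, Plin1 and Plin4 had none. The 9 were Fabp4 and Lpl, which endothelial cells also use, and Lipe, Pnpla2, Cidea, Cidec, Dgat2, Prdm16 and Ucp1. The sum is not split by gene here, and the reason for its level was not tested. The libraries shared 6 barcode sequences.

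Of the 39 members, 13 had at least 50 UMIs over the 5 classes and both libraries, 13 had 10 to 49, 10 had 1 to 9 and 3 had none. The 13 were Lama2, Lama4, Lamb1, Lamb3, Lamc1, Lamc3, Itga1, Itga6, Itga7, Itgav, Itgb1, Itgb5 and Itgb3bp. The best covered member was Lama4 with 1637 UMIs. Itgam, Itgad and Itgb2l, integrin subunits known from myeloid cells, were the members at 0 in the classes. A count of 0 in the 2 macrophage sums has an upper bound of 207 CPM in TN and 366 CPM in 1cyc. Levels of these genes below that could go uncounted at this depth.

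Sequences are shown for Lama2 and Itgb6, members with high CPM in fibroblast and in muscle barcodes. RefSeq windows from 250 bases before to 50 after a gene start on GRCm38.p6 were at hand for 25 of the 39 members. The Lama2 window is chr10:27616893-27617192 and the Itgb6 window chr2:60722554-60722853, both on the minus strand and written 5′ to 3′. Of the 2 windows of Itgb6 this is the nearer to the gene start of GENCODE M21, 39 bases away, while the Lama2 window lies 2815 bases from that gene start. Capitals mark every match, on either strand, to the TATA box (TATAAA), the GC box (GGGCGG), the CCAAT box (named for its letters), the Ets motif (GGAAGT) or the E-box (CANNTG), which do not overlap each other here.
Lama2: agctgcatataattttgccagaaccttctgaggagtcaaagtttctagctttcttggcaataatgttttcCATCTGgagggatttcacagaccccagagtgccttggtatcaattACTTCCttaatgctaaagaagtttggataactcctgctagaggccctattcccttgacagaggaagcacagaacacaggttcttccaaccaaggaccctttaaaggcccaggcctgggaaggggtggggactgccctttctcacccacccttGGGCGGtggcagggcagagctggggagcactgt
Itgb6: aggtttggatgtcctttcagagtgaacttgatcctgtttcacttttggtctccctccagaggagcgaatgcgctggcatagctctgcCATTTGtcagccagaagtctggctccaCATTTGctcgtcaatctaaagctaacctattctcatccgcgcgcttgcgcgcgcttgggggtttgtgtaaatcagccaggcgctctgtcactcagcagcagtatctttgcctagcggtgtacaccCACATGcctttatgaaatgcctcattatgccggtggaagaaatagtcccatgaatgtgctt
The Lama2 window held 1 match to CANNTG, 1 to GGAAGT on the opposite strand and 1 to GGGCGG. The Itgb6 window held 3 matches to CANNTG and none to the others. Among 32851 such windows of the genome, 72.3% held CANNTG, 35.7% GGGCGG, 23.8% GGAAGT, 37.4% CCAAT and 13.6% TATAAA. These matches describe letters only.

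Among the laminin alpha chains, Lama2 was highest in fibroblasts in both libraries, while Lama4 was highest in adipocytes in TN and in endothelial barcodes in 1cyc. Lama2, the alpha chain of muscle and nerve basement membranes, had a fibroblast level of 2406 CPM (2068 to 2785) in the TN library and one of 2997 CPM (2353 to 3762) in the 1cyc library, from 180 and 74 UMIs. In adipocytes it stood at 98.7 CPM (84.4 to 115) and 60.3 CPM (47.5 to 75.5). The fibroblast level was 24.4-fold (19.7 to 30.3) the adipocyte level in TN and 49.7-fold (35.6 to 69.4) in 1cyc. Lama2 UMIs were present in 40 of 44 TN fibroblast barcodes and 86 of 1826 TN adipocyte barcodes, at median depths of 1638 and 779 UMIs. Thinned to 500 UMIs per barcode, these shares were 68.2% (52.4 to 81.4) and 2.90% (2.18 to 3.78). In 1cyc the thinned shares were 72.2% (46.5 to 90.3) of 18 fibroblast and 1.96% (1.17 to 3.08) of 917 adipocyte barcodes. The 2 shares lay far apart in both libraries. TN endothelial and muscle sums held 3 and 1 Lama2 UMIs, and 7 UMIs in 2 of the 10 1cyc muscle barcodes gave 548 CPM (221 to 1130).

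Lama4, the alpha chain known from vessels and fat, had an adipocyte level of 551 CPM (516 to 587) in TN, and of 503 CPM (465 to 544) in 1cyc. In fibroblasts it stood at 388 CPM (260 to 557) and 243 CPM (89.2 to 529), and in endothelial barcodes at 273 CPM (159 to 437) and 592 CPM (217 to 1289). The endothelial value in 1cyc rested on 6 UMIs. The adipocyte level was 1.42-fold (0.982 to 2.13) the fibroblast level in TN and 2.07-fold (0.946 to 5.66) in 1cyc, and both intervals include 1. Macrophage sums held 0 Lama4 UMIs in both libraries. Lama2 (ENSMUSG00000019899) lies on mm10 chromosome 10 from 26980036 to 27619758 and Lama4 (ENSMUSG00000019846) on the same chromosome from 38965515 to 39110188.

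Lama3, the alpha chain of epithelial basement membranes, had 19 TN and 4 1cyc UMIs in adipocytes (11.1 and 3.17 CPM), a ratio of 0.286 (0.0708 to 0.861). It lies under the minimum of 50 UMIs for a comparison. Lama5, another alpha chain of vessels and epithelia, had 6 and 4 UMIs in adipocytes and 4 and 1 in endothelial barcodes. Lama1, the alpha chain of the early embryo, had 2 and 3 UMIs, all in adipocytes, the class with the most UMIs of all genes.

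Lamc1 and Lamb1, the gamma and beta chains that occur in most laminins, were counted in adipocytes and, at higher CPM, in fibroblasts. Lamc1 stood at 239 CPM (217 to 264) in TN adipocytes and 682 CPM (508 to 896) in TN fibroblasts, a ratio of 2.85 (2.09 to 3.82). In 1cyc the levels were 202 CPM (178 to 229) and 364 CPM (167 to 692), and that ratio, 1.80 (0.815 to 3.47), includes 1. Lamb1 had adipocyte levels of 105 CPM (90.3 to 122) and 102 CPM (85.4 to 122). TN fibroblasts held 201 CPM (112 to 331) of Lamb1 from 15 UMIs and 1cyc fibroblasts 121 CPM (25.1 to 355) from 3. Neither endothelial sum held a Lamb1 UMI, which has an upper bound of 59.3 CPM in TN and 364 CPM in 1cyc. Lamb2, a beta chain of muscle and vessel basement membranes, had 24 and 17 UMIs in adipocytes and 5 and 0 in endothelial barcodes. Lamc3, a further gamma chain, had 29 TN and 23 1cyc UMIs, all in adipocytes, and Lamb3, a beta chain of epithelia, had 57 of its 58 UMIs there. The adipocyte class also held most UMIs of all genes, 1712428 in TN and 1260493 in 1cyc, against 74800 and 24692 in fibroblasts. The Lamc3 level of 16.9 and 18.2 CPM is below what 1 UMI is worth in macrophages and muscle of both libraries and in 1cyc fibroblasts and endothelial barcodes, so a count of 0 there sets no order.

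Itga6, an alpha subunit of laminin receptors, was highest in endothelial barcodes. It stood there at 1012 CPM (778 to 1295) in TN from 63 UMIs and at 592 CPM (217 to 1289) in 1cyc from 6. Adipocytes held 30.4 CPM (22.7 to 39.8) and 19.0 CPM (12.2 to 28.3). The endothelial level was 33.3-fold (22.7 to 49.1) the adipocyte level in TN and 31.1-fold (10.4 to 78.1) in 1cyc. Thinned to 500 UMIs, 20 of 52 TN endothelial barcodes (38.5%, 25.3 to 53.0) and 18 of 1826 adipocyte barcodes (0.986%, 0.585 to 1.55) had an Itga6 UMI. Before thinning these were 32 and 40 barcodes, at median depths of 1021 and 779 UMIs. Itga6 (ENSMUSG00000027111) lies on chromosome 2 from 71745616 to 71858416.

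Itga1, the alpha subunit of a collagen and laminin receptor, stood at 595 CPM (419 to 820) in TN endothelial barcodes and 132 CPM (115 to 150) in TN adipocytes, a ratio of 4.51 (3.09 to 6.40). In 1cyc the endothelial sum held 2 Itga1 UMIs, and the ratio to adipocytes was 1.53 (0.183 to 5.60). The coding gene Pelo lies inside Itga1 on the same strand, so counts of the 2 genes could be split unevenly. Itgb1, the beta subunit that most laminin and collagen receptors share, was counted in every class. Its TN levels were 546 CPM (378 to 764) in endothelial barcodes, 504 CPM (231 to 958) in macrophages, 134 CPM (64.1 to 246) in fibroblasts, 128 CPM (112 to 147) in adipocytes and 53.6 CPM in muscle. In 1cyc they were 592, 596, 162, 92.0 and 78.4 CPM in the same order. Endothelial and macrophage levels did not differ beyond their intervals, and both lay above the adipocyte level in each library: 4.25-fold (2.87 to 6.12) and 3.93-fold (1.77 to 7.59) in TN, 6.44-fold (2.31 to 14.4) and 6.47-fold (2.33 to 14.5) in 1cyc.

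Itgb6, a beta subunit best known from epithelia, where it pairs with Itgav to release active TGF-beta, was counted in muscle barcodes. The TN muscle sum held 17 UMIs (455 CPM, 265 to 729) in 12 of 38 barcodes and the 1cyc sum 6 UMIs (470 CPM, 173 to 1023) in 3 of 10. The TN adipocyte sum held 0. Against an assumed floor of 3 counts there, the TN muscle level was 260-fold higher. The interval of this ratio to adipocytes, from the counts of 17 and 0, has a lower bound of 189-fold and no upper bound. The TN fibroblast, endothelial and macrophage sums are smaller and also held 0. Against the same floor the muscle level was 11.4-fold, 9.45-fold and 2.71-fold theirs, with lower bounds of 8.27, 6.88 and 1.97. The 1cyc adipocyte and endothelial sums held 1 Itgb6 UMI each, which is 0.793 and 98.7 CPM. Beyond the 5 classes, barcodes that reached several marker sums held 7 TN and 3 1cyc UMIs, barcodes over the mitochondrial limit 0 and 6, and barcodes of no class none. Barcodes with several marker sums also carried muscle markers, 2205 CPM in the TN library and 4648 CPM in 1cyc. Thinned to 500 UMIs, 3 of 38 TN muscle barcodes (7.89%, 1.66 to 21.4) and 0 of 1826 adipocyte barcodes had an Itgb6 UMI. Itgb6 (ENSMUSG00000026971) lies on chromosome 2 from 60598292 to 60722643. With 25 UMIs in the classes it stayed under the minimum of 50 for the class comparison.

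Itgav and Itgb5, which pair as a receptor for vitronectin, had most of their UMIs in adipocytes and fibroblasts. These classes held most UMIs of all genes too. In TN they held 1712428 and 74800, against 62226 in endothelial, 37324 in muscle and 17841 in macrophage barcodes. By CPM Itgav and Itgb5 were not confined to adipocytes and fibroblasts. In TN muscle each stood at 107 CPM (29.2 to 274) from 4 UMIs. TN endothelial barcodes held 64.3 CPM of Itgav and 80.4 CPM of Itgb5. In 1cyc, muscle and endothelial sums held 1 Itgav UMI each and 0 Itgb5 UMIs. Itgav had adipocyte levels of 51.4 CPM (41.2 to 63.3) and 57.1 CPM (44.7 to 71.9), and fibroblast levels of 120 CPM (55.0 to 228) and 202 CPM (65.7 to 473). The fibroblast level was 2.34-fold (1.04 to 4.65) and 3.55-fold (1.12 to 8.66) the adipocyte level, from 9 and 5 fibroblast UMIs. Itgb5 stood at 107 CPM (92.5 to 124) and 106 CPM (89.1 to 126) in adipocytes, and at 174 CPM (92.5 to 297) and 40.5 CPM (1.03 to 226) in fibroblasts. The last value is 1 UMI, and the fibroblast to adipocyte ratios of Itgb5, 1.62 (0.845 to 2.84) and 0.381 (0.00957 to 2.16), include 1. Itga4, an alpha subunit of leukocytes that binds VCAM1 and fibronectin, held 10 UMIs in 3 of 9 TN macrophage barcodes (561 CPM, 269 to 1031) and 2 UMIs in 1 of 9 1cyc ones. TN adipocytes held 4.09 CPM of it (1.64 to 8.42). Itgb2, the beta subunit shared by leukocyte integrins, had 2 UMIs in TN macrophages, and Itgal and Itgax, alpha subunits that pair with it, had none. Itga11, Itga9 and Itga5, alpha subunits of a collagen receptor, a tenascin receptor and the classical fibronectin receptor, had 5, 8 and 7 UMIs in TN fibroblasts. Their CPM there was 12.7-fold (3.35 to 42.3), 16.7-fold (5.81 to 45.4) and 17.8-fold (5.64 to 53.7) the adipocyte level. Itga5 was as high in TN endothelial barcodes, at 96.4 CPM from 6 UMIs, 18.3-fold (5.37 to 57.7) the adipocyte level. In 1cyc, fibroblasts held 3, 2 and 1 UMIs of Itga11, Itga9 and Itga5 (121, 81.0 and 40.5 CPM). Endothelial barcodes there held 2 UMIs each of Itga9 and Itga5, at 197 CPM, above their fibroblast CPM. These few UMIs set no order between the 2 classes.

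**Figure D1:**
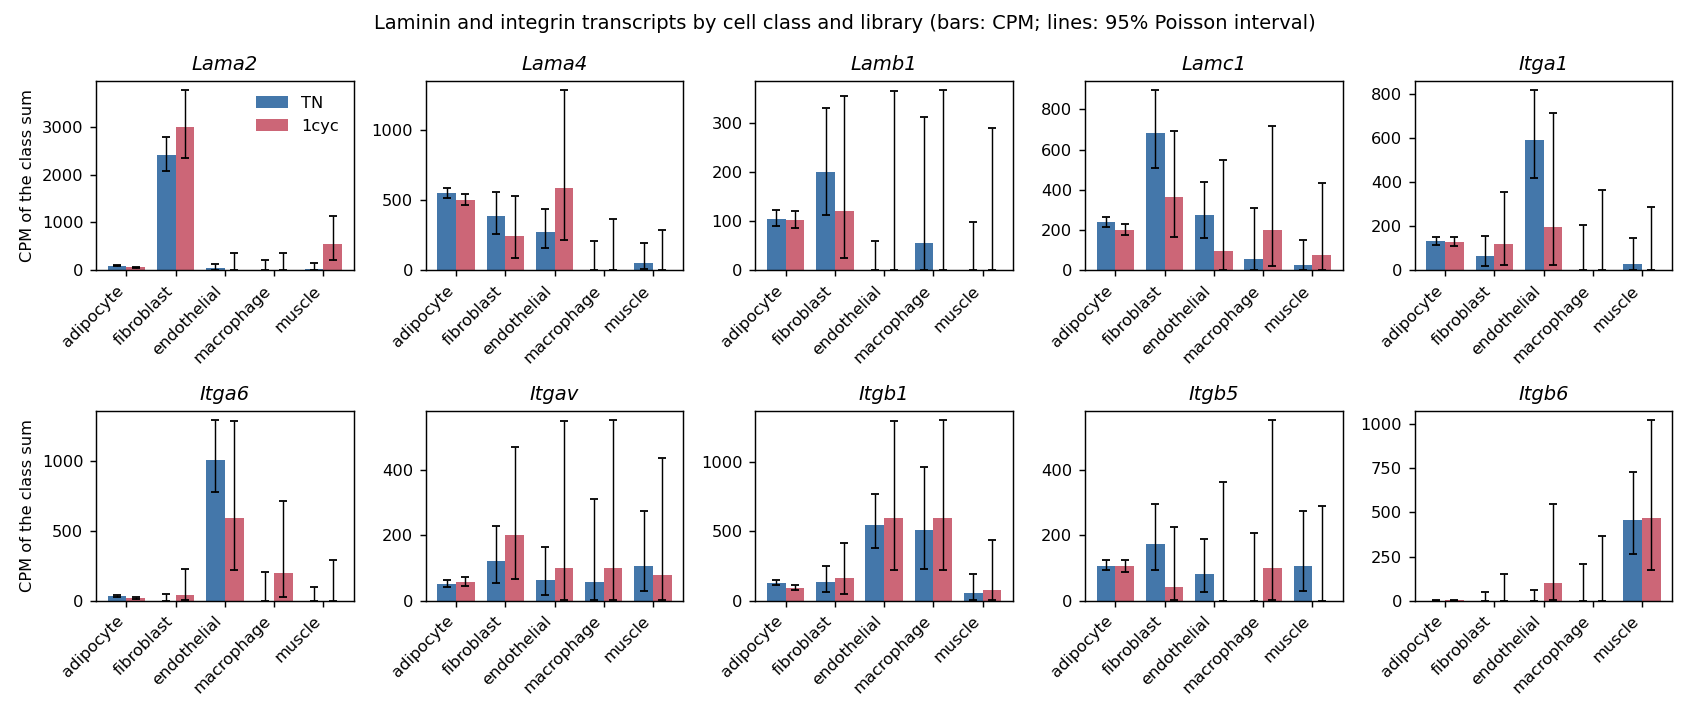
CPM of 10 members (vertical axes, each on its own scale) in the 5 cell classes, with TN in blue and 1cyc in red and lines for 95% Poisson intervals. Lama2 stands highest in fibroblasts (2406 and 2997 CPM), Itga6 in endothelial barcodes (1012 and 592 CPM) and Itgb6 in muscle (455 and 470 CPM), and intervals are wide in the small 1cyc classes.

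A gene was counted as having a leading class when the same class was highest in both libraries and at least 2-fold over the next class in each. Of the 13 members compared, 4 met this, against 13.8% of all 6840 genes. They were Lama2 in fibroblasts, Itga6 in endothelial barcodes, Itga7 in muscle and Lamc3 in adipocytes. The call for Itga7, the alpha subunit of the main laminin receptor of muscle fibres, rested on 2 TN and 1 1cyc muscle UMIs. The call for Lamc3 rested on counts of 0 in classes where 1 UMI is worth 13.4 CPM or more, and its adipocyte level was at most 18.2 CPM. At least 3-fold over the next class, 2 of 13 were left, Lama2 and Lamc3, as Itga6 was 2.98-fold over the next class in 1cyc. With at least 100 UMIs 2 were left as well, Lama2 and Itga6.

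Between the libraries, most members of the adipocyte class differed little. Of the 13 members compared in adipocytes, 2 were at least 1.5-fold higher in 1cyc, against 9.69% of 6377 genes. They were Itgb3bp, with 15.8 and 29.4 CPM in TN and 1cyc (ratio 1.86, 1.10 to 3.18), and Lamb3, with 15.8 and 23.8 CPM (ratio 1.51, 0.867 to 2.64). Lamb3 was no longer past 1.5-fold when mitochondrially encoded UMIs were left out of the totals or with median-of-ratios scaling. With a mitochondrial limit of 5%, Itgb3bp had 1.40 (0.776 to 2.54) and Lamb3 1.49 (0.801 to 2.82), and with no such limit 1.33 (0.807 to 2.23) and 1.40 (0.834 to 2.37), so neither was past 1.5-fold under either. Another 2 were at least 1.5-fold lower, against 6.05% of genes: Lama2, with a ratio of 0.611 (0.460 to 0.805), and Itga6, with 0.627 (0.370 to 1.04). Lama2 had 0.740 (0.584 to 0.935) with no mitochondrial limit, and Itga6 0.698 (0.386 to 1.23) with at least 5 marker UMIs. The other 9 lay within 1.5-fold. The median log2 ratio of the 13 was -0.03, beside 0.06 over all genes.

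Lama4 had a ratio of 0.913 (0.825 to 1.01), Lamb1 0.974 (0.770 to 1.23), Itga1 0.980 (0.796 to 1.20) and Itgb5 0.989 (0.786 to 1.24). The intervals of these 4 include 1 and lie inside 1.5-fold. Itgb1 had a ratio of 0.716 (0.567 to 0.901) and Lamc1 0.845 (0.720 to 0.990), with upper bounds under 1. Itgav had 1.11 (0.803 to 1.54), Itga7 1.16 (0.725 to 1.86) and Lamc3 1.08 (0.595 to 1.93). These intervals say nothing of the spread between mice or preparations.

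**Figure D2:**
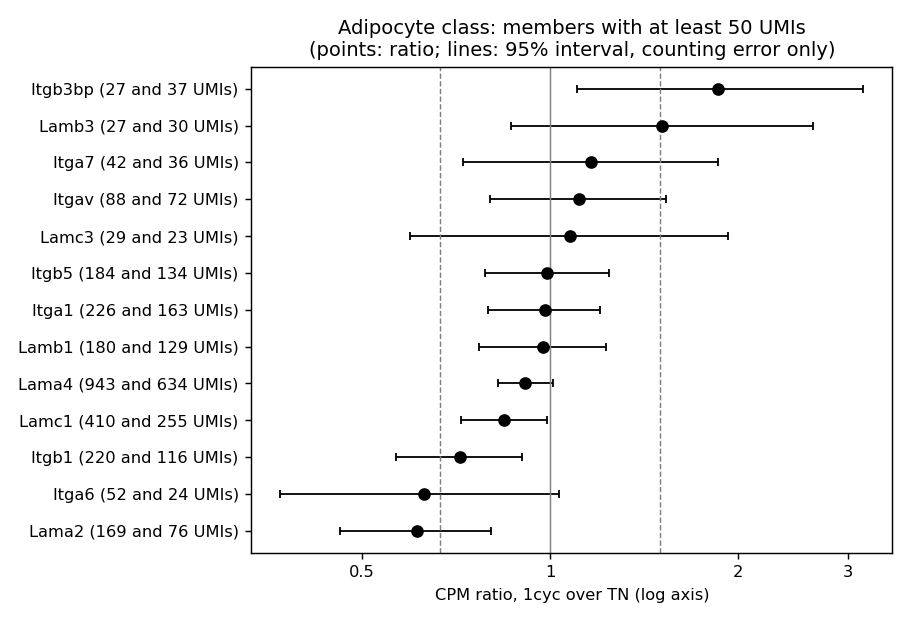
CPM ratio of 1cyc over TN (horizontal log axis) for the 13 members with at least 50 UMIs in the adipocyte class, with lines for 95% intervals and dashed lines at 1.5-fold in each direction. Lama2 (0.611) and Itga6 (0.627) lie below the lower dashed line, and Lamb3 (1.51) and Itgb3bp (1.86) above the upper one.

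The fibroblast and endothelial marker lists were lower in the 1cyc adipocyte class, as were Lama2 and Itga6, and a link between them was not tested. Within the adipocyte class, all 12 further fibroblast markers had UMIs in both libraries, summing to 420 CPM (390 to 452) in the TN library, against 253 CPM (226 to 282) in 1cyc. The endothelial markers summed to 336 CPM (309 to 365) and 218 CPM (193 to 246), with Vwf at 0 in TN. Haemoglobin and Alas2 transcripts also differed between the adipocyte classes, with 22748 CPM in the TN library against 5138 CPM in 1cyc. The mural list stood at 196 and 159 CPM, the macrophage list at 124 and 97.6 CPM and the muscle list at 315 and 288 CPM. For these 3 lists the intervals of the libraries overlap. The 86 TN adipocyte-class barcodes with a Lama2 UMI held 2822 CPM of the fibroblast list, and the 1740 without held 278 CPM. In 1cyc these were 1888 CPM in 54 barcodes and 190 CPM in 1500. The 40 TN barcodes with an Itga6 UMI held 2852 CPM of the endothelial list and the 1786 without 260 CPM, and in 1cyc 1093 CPM in 20 and 203 CPM in 1534. In both libraries, the adipocyte-class barcodes that carried Lama2 or Itga6 thus also carried more of the other type's markers. These barcodes were deeper as well, with TN medians of 1026 against 771 UMIs for Lama2 and 1221 against 773 for Itga6. The adipocyte list stood at 4238 CPM with and 5761 CPM without a Lama2 UMI in TN, and 4879 and 7333 CPM in 1cyc. For Itga6 it stood at 7943 and 5607 CPM in TN, and 7083 and 7244 CPM in 1cyc. In TN the endothelial list was also higher in barcodes with an Itgb1 UMI (710 CPM against 286 CPM without) and with an Itga1 UMI (847 against 264 CPM). In 1cyc it stood at 264 against 213 CPM for Itgb1 and 195 against 222 CPM for Itga1. With and without a Lama4 UMI the fibroblast list stood at 468 and 389 CPM in TN and 293 and 226 CPM in 1cyc.

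**Figure D3:**
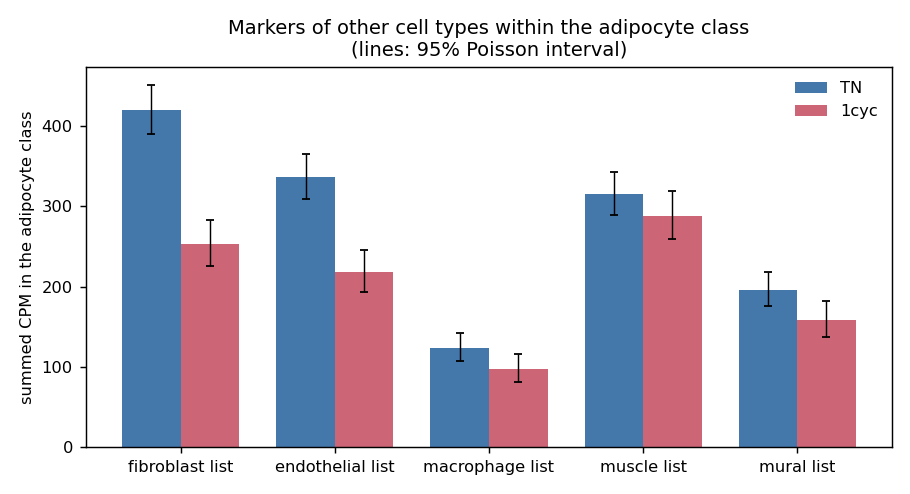
Summed CPM of 5 marker lists of other cell types within the adipocyte class (vertical axis), TN in blue and 1cyc in red, with lines for 95% Poisson intervals. The fibroblast list (420 and 253 CPM) and the endothelial list (336 and 218 CPM) are lower in 1cyc.

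The ratios were computed again over the adipocyte-class barcodes with no UMI of the fibroblast and endothelial lists, 1257 in TN and 1195 in 1cyc, a choice made after the data were seen. Lama2 then stood at 25.7 CPM (28 UMIs) and 34.4 CPM (31 UMIs), a ratio of 1.33 (0.774 to 2.31). Itga6 stood at 11.0 and 12.2 CPM, a ratio of 1.10 (0.442 to 2.73), and Lamb3 at 17.5 and 16.6 CPM, a ratio of 0.951 (0.450 to 1.98). The lower levels of Lama2 and Itga6 in 1cyc were thus not seen in these barcodes, whose intervals are wide. Of the 8 members that still had 50 UMIs, 0 were at least 1.5-fold higher, against 9.62% of genes, and 0 at least 1.5-fold lower, against 4.05%. Lama4 kept its level, at 511 and 500 CPM (ratio 0.977, 0.861 to 1.11), and Itgb1 had a ratio of 0.817 (0.609 to 1.09). Itgb3bp, which no longer had 50 UMIs there, had a ratio of 1.98 (0.976 to 4.16).

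Within the adipocyte class, Lama4 was higher in barcodes that carried Nnat and Slc7a10, genes known from white adipocytes. At least 3 UMIs of these 2 genes together were present in 100 of 1826 TN barcodes (5.48%) and 21 of 1554 1cyc barcodes (1.35%), with median depths of 1416 and 1501 UMIs against 767 and 612 in the others. Lama4 stood at 1293 CPM with and 476 CPM without them in TN, a ratio of 2.71 (2.31 to 3.18). In 1cyc it stood at 1190 and 483 CPM, a ratio of 2.46 (1.76 to 3.37). Both ratios lay above 2, and neither interval includes 1. Between the libraries, the Lama4 ratio was 1.01 (0.909 to 1.13) without the Nnat and Slc7a10 barcodes and 0.920 (0.644 to 1.29) within them. Itga7 had 76.8 CPM with and 19.3 CPM without them in TN (ratio 3.98, 1.86 to 8.01), and 85.0 and 26.9 CPM in 1cyc from 3 and 33 UMIs (ratio 3.16, 0.619 to 10.1). Lama2 was lower in these barcodes, at 38.4 against 105 CPM in TN (ratio 0.367, 0.133 to 0.815) and 28.3 against 61.2 CPM in 1cyc from 1 and 75 UMIs. They held 659 CPM of fibroblast markers in TN against 396 CPM in the others. Of 9 members with 50 UMIs in TN, 3 were at least 1.5-fold higher in these barcodes, against 18.7% of genes, and 1 lower, against 26.4%. The higher ones were Lama4, Itga6 (2.08, 0.893 to 4.34) and Lamb1 (1.53, 0.953 to 2.36). In 1cyc, 3 of 8 were higher, against 22.7%, and 1 lower, against 37.1%. There the higher ones were Lama4, Lamc1 (2.48, 1.42 to 4.05) and Itga1 (1.56, 0.616 to 3.29). Of these members only Lama4 was among the higher ones in both libraries, and Lama2 was the lower one in both. The 1cyc Lama2 ratio, 0.463 (0.0116 to 2.66), rests on 1 UMI in these barcodes, and its interval includes 1. Lamc1 had 1.17 (0.830 to 1.60) in TN and Lamb1 0.826 (0.168 to 2.47) in 1cyc.

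**Figure D4:**
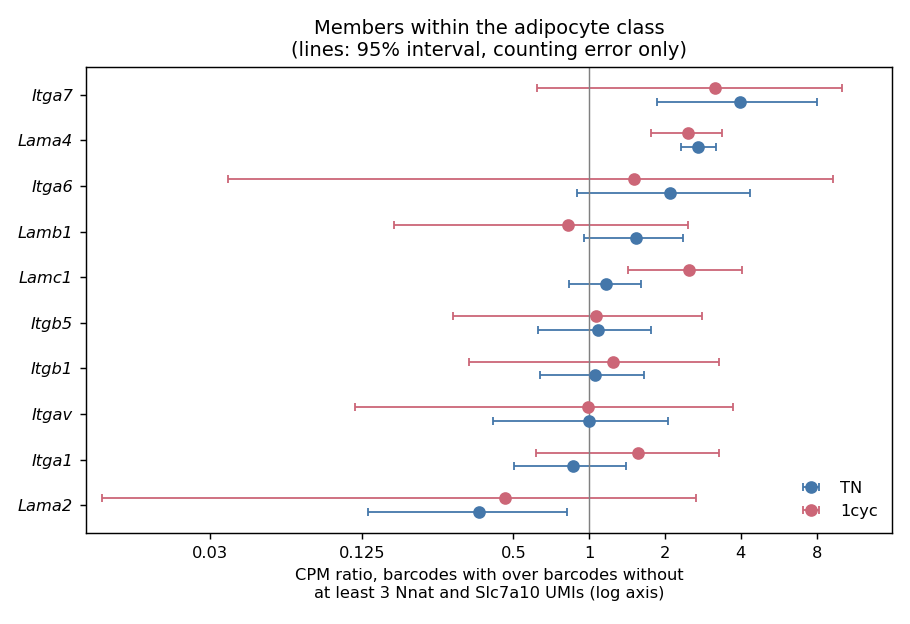
CPM ratio between adipocyte-class barcodes with and without at least 3 UMIs of Nnat and Slc7a10 (horizontal log axis) for 10 members, TN in blue and 1cyc in red, with lines for 95% intervals. Lama4 lies at 2.71 and 2.46 and Lama2 at 0.367 and 0.463, and the 1cyc intervals rest on 21 barcodes.

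In the other classes few members could be compared between the libraries. Lama2 in fibroblasts had a ratio of 1.25 (0.937 to 1.64) and Lamc1 0.535 (0.231 to 1.10). Lamc1 was thus 1 of 2 members at least 1.5-fold lower in fibroblasts, where 19% of 189 genes were. Itga6 was the only member compared in endothelial barcodes and was lower in 1cyc, with a ratio of 0.585 (0.207 to 1.35), where 28.3% of 127 genes were at least 1.5-fold lower. It turned to 1.24 with a mitochondrial limit of 5%. The 1cyc values rest on 9 UMIs for Lamc1 and 6 for Itga6, and both intervals include 1. No member had 50 UMIs in macrophage or muscle barcodes, so 0 members were compared there. Among all genes with 50 UMIs, 14.8% of 27 were at least 1.5-fold higher and 14.8% lower in macrophages, and 8.7% of 92 higher and 19.6% lower in muscle. In fibroblasts and endothelial barcodes 0 members were at least 1.5-fold higher, against 12.2% and 11% of genes.

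The partners of laminins in the basement membrane were next compared in adipocytes, against the same 9.69% and 6.05% of all genes. Of 18 genes, 9 were compared, with 0 at least 1.5-fold higher and 2 lower, and a median log2 ratio of -0.06. The 2 lower ones were Nid1, which links laminin to collagen IV (ratio 0.666, 0.400 to 1.08), and Egflam, the gene of a dystroglycan ligand (0.662, 0.361 to 1.17). In the barcodes without fibroblast and endothelial UMIs their ratios were 0.922 and 0.884 and neither had 50 UMIs. Hspg2, the gene of perlecan, had a ratio of 0.972 (0.724 to 1.30). The collagen IV chain genes Col4a1 and Col4a2 had 0.845 (0.636 to 1.12) and 1.02 (0.766 to 1.36). Nid2, a relative of Nid1, had 10 and 6 UMIs.

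Among 15 other laminin receptors and their linkers, 10 were compared, with 0 at least 1.5-fold higher and 4 lower, and a median log2 ratio of -0.55. Sgce, a sarcoglycan of the dystroglycan complex, had 89.9 CPM in the TN library, 42.0 CPM in 1cyc (ratio 0.468, 0.336 to 0.643). Sntb1 and Sntb2, syntrophins that bind dystrophin and utrophin, had ratios of 0.636 (0.542 to 0.744) and 0.648 (0.494 to 0.846). Rpsa, a ribosomal protein gene also named as a laminin receptor, had 0.423 (0.214 to 0.784). Dag1, the gene of dystroglycan, the main laminin receptor that is not an integrin, had 256 CPM in the TN library, 338 CPM in 1cyc (ratio 1.32, 1.15 to 1.51). Dag1 thus had the opposite direction to Sgce and the syntrophins. Without fibroblast and endothelial UMIs, Sgce had 0.628 (0.410 to 0.947), Sntb1 0.644 (0.526 to 0.786), Sntb2 0.689 (0.480 to 0.979) and Dag1 1.22 (1.04 to 1.43). Bcam, a laminin receptor of the immunoglobulin family, had 7 and 4 UMIs in adipocytes.

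Of 29 adaptors that bind integrin tails or act beside them, 14 were compared, with 0 at least 1.5-fold higher and 1 lower, and a median log2 ratio of -0.01. The lower one was Tln2, a talin gene, with 142 and 84.9 CPM (ratio 0.598, 0.472 to 0.754). Tln1, the other talin, had 1.18 (0.771 to 1.79) and Fermt2, a kindlin gene, 1.13 (0.994 to 1.28). Without fibroblast and endothelial UMIs the counts became 2 higher and 2 lower. Tln1 then had 1.58 (0.918 to 2.73), Vcl, the gene of vinculin, 1.52 (1.16 to 1.99), Rap1a, a small GTPase gene, 0.607 (0.453 to 0.806) and Tln2 0.639 (0.472 to 0.858). Of 24 other integrin ligands in the table, 4 were compared and 4 were at least 1.5-fold lower, with a median log2 ratio of -0.98. Svep1, a large matrix protein that binds Itga9, had 485 CPM in the TN library, 241 CPM in 1cyc (ratio 0.498, 0.435 to 0.568). Its ratio was 0.489 (0.416 to 0.573) without fibroblast and endothelial UMIs, so the lower Svep1 level was as large in those barcodes. Col6a3 (0.408, 0.195 to 0.792), Ltbp1 (0.519, 0.298 to 0.872) and Col1a2 (0.630, 0.345 to 1.11) were the others. In those barcodes they had 3, 18 and 0 TN UMIs left, under the minimum for a comparison. Ltbp1 had a ratio of 0.469 (0.165 to 1.18) there and Col6a3 one of 1.61 (0.272 to 11.0), and Col1a2 is itself on the fibroblast list. Fn1, the gene of fibronectin, had 6 and 4 UMIs in adipocytes.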

How the data were processed

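Single nuclei of brown adipose tissue were sequenced on the 10X Genomics platform from 1 TN and 1 1cyc library, each pooled from 5 mice. The deposited values are raw UMI counts per gene and barcode; the submitters' processing notes name mm10 and Cell Ranger 3, which the authors used (3.1.0 per the file headers). The sources used here do not give the gene annotation or say if introns were counted. Gene positions come from GENCODE M21, which held 39 of 39 members and 99.6% of all identifiers.

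Counts were summed over the barcodes of each class and scaled to CPM. The class markers, the minimum of 3 UMIs and the 20% limit belong to the rule for the members, and barcodes that reached several marker sums were left out. No doublet caller was used. Scrublet (scanpy 1.11.5) called 10 TN and 20 1cyc barcodes and served as an alternative. Intervals at 95% are exact: Poisson for a CPM, conditional binomial for a ratio and Clopper-Pearson for a share. They cover counting error only. Genes with at least 50 UMIs over both libraries in a class were compared and counted at 1.5-fold. With 1 library per condition no p-value was computed. Where the lower class had 0 UMIs, its level was taken as that of 3 counts. The interval and class functions were tested on simulated data (Python 3.11.15, scipy 1.17.1).

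Members with at least 50 UMIs in a class were given with their values and the others by counts; 1 member is not reported here by name. Of the partner lists, members past 1.5-fold and 12 set genes were named. Itgb6, Lama3 and other members with fewer UMIs were named with their counts. The members, lists and alternatives were chosen with earlier results of these data known.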

Additional observations from a re-analysis of the deposited data

Results flagged for a closer look

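Lama2 had opposite directions in 2 classes, with a CPM ratio of 1cyc over TN of 0.611 in adipocytes and 1.25 in fibroblasts, and this difference was not tested. The fibroblast interval (0.937 to 1.64) includes 1. In adipocyte-class barcodes without fibroblast or endothelial marker UMIs the Lama2 ratio was 1.33 (0.774 to 2.31), so the opposite direction was not seen there.

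Members with few UMIs in the 5 classes had a signal in the 398 TN barcodes that met no class, which enter none of the comparisons. Itga4 stood there at 63.8 CPM (44.7 to 88.3) from 36 UMIs in 13 barcodes, Itga9 at 33.7 CPM, Itga11 at 31.9 CPM, Itga5 at 30.1 CPM and Itga8, an alpha subunit of smooth muscle and mesenchymal cells, at 24.8 CPM. In the 403 1cyc barcodes of no class the same 5 genes had 4, 6, 6, 5 and 2 UMIs. Haemoglobin and Alas2 transcripts took 386221 CPM of the TN sum and 248461 CPM of the 1cyc sum, which lowers every other CPM there.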

How the results depend on the processing

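All intervals cover counting error only, and every value rests on 1 library per condition, so no library could be left out. No paired analysis was possible because each condition has 1 library. The small classes, 9 to 20 barcodes in 1cyc, limit every level outside adipocytes. Under the alternatives, the adipocyte ratio of Lama4 ran from 0.811 to 1.01, of Itgb1 from 0.678 to 0.817, of Lamc1 from 0.785 to 0.934 and of Itgb5 from 0.915 to 1.00. Where a value changed, the cause was not tested.

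The 2 adipocyte members at least 1.5-fold higher became 0 with a mitochondrial limit of 5%, with no such limit, with at least 100 UMIs, at 2-fold and without fibroblast or endothelial marker UMIs. They became 1 with totals free of mitochondrially encoded UMIs, also free of haemoglobin UMIs (added after the data were seen), with median-of-ratios scaling and without the Nnat and Slc7a10 barcodes. The 2 lower ones became 1 with the 5% limit, no limit, at least 5 marker UMIs, at least 100 UMIs and without the Nnat and Slc7a10 barcodes, and 0 at 2-fold and without fibroblast or endothelial marker UMIs. In that last setting Lama2 turned to 1.33, Itga6 to 1.10 and Lamb3 to 0.951. In other classes the 2 lower members became 0 with the 5% limit, at least 5 marker UMIs, at least 100 UMIs and at 2-fold, 1 when the largest marker sum gave the class, and 4 (with 1 higher) at 20 UMIs. Itga6 in endothelial barcodes turned to 1.24 with the 5% limit. The 4 members with a leading class became 2 at 3-fold (Lama2 and Lamc3) and 2 at 100 UMIs (Lama2 and Itga6).

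Of basement membrane partners in adipocytes, the 0 higher became 1 with the 5% limit and with at least 500 UMIs per barcode. The 2 lower became 1 with no limit, at least 5 marker UMIs and Scrublet calls removed, and 0 at 100 UMIs, at 2-fold, without the Nnat and Slc7a10 barcodes and without fibroblast or endothelial marker UMIs. Of other laminin receptors and linkers, the 4 lower became 2 at 2-fold and without fibroblast or endothelial marker UMIs, and the 0 higher became 1 at 20 UMIs. Of integrin adaptors, the 1 lower became 2 with no limit, with the largest marker sum and without fibroblast or endothelial marker UMIs (with 2 higher), 4 at 20 UMIs (with 1 higher) and 0 at 2-fold. Of other integrin ligands, the 4 lower became 2 with the 5% limit and at 2-fold, and 1 with at least 5 marker UMIs, at 100 UMIs and without fibroblast or endothelial marker UMIs. The 0 higher became 1 with no limit and at 20 UMIs. Counts by the other settings stayed within 1.5 times.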

Other observations

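Barcodes with no class also held much of the Lama2 signal, 384 of 827 TN UMIs and 155 of 413 1cyc UMIs, at 681 CPM (614 to 752) and 666 CPM (565 to 779). They were spread over 131 TN and 62 1cyc barcodes, and fibroblast markers stood at 2047 and 1942 CPM in these sums.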
